A study of Homo sapiens with 4 samples.

Results

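Messenger RNA of the MHC class I presentation pathway and of the PD-L1 gene was followed through 4 RNA sequencing libraries of human bladder cancer cells. The set comprised 9 genes taken by symbol from the 56303 genes of the deposited count table, and all 9 passed the filter on low counts that 17689 genes passed. They were the class I heavy chain genes HLA-B, HLA-C and HLA-E, the light chain gene B2M, the peptide transporter genes TAP1 and TAP2, the tapasin gene TAPBP, the transactivator gene NLRC5 and CD274, which encodes PD-L1. EJ and T24T cells, both labelled bladder cancer lines, had been transfected with the circular RNA hsa_circ_0008399 (circ) or with the vector alone. Each combination was 1 library, giving EJ vector, EJ circ, T24T vector and T24T circ. Registers of misidentified lines list EJ as a derivative of T24, and T24T is a T24 variant, so the lines may not stand for separate tumours. The labels do not say how long after transfection RNA was taken, nor whether cultures were pooled.

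Class I molecules show peptides from inside the cell to CD8 T cells. The proteasome cuts the peptides, TAP1 and TAP2 pump them into the endoplasmic reticulum, tapasin holds empty class I molecules at the transporter, and the heavy chain reaches the surface in complex with beta-2 microglobulin. NLRC5 activates transcription of most of these genes through a shared promoter module, and interferon raises them further. PD-L1 is a surface ligand that restrains T cells through PD-1 and is induced by interferon gamma in many tumour cells.

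Total counts were between 14703455 and 18057768 per library. The mitochondrial share of counts moved with circ, with EJ at 5.40% under vector and 4.01% under circ and T24T at 5.05% and 3.08%, and its part in the results below was not tested. Among 9 leukocyte markers, PTPRC, CD3E, MS4A1 and LYZ had 0 counts in all 4 libraries. The 9 together had between 164 and 1113 counts, of which CD68 supplied 160 and 216 in EJ and 951 and 1111 in T24T (2.32 ± 0.11 on the log2 scale, edgeR adjusted p = 1.63e-17). The 7 endothelial or stromal markers together had 7 to 25 counts, with DCN and LUM at 0. Of the markers fixed for bladder cancer lines, KRT7, KRT8, KRT18 and VIM were abundant. The urothelial regulator GATA3 had at most 1 count in any library and KRT5 had 0. UPK2 was detected, with 23 and 28 counts in EJ and 30 and 48 in T24T, and was called in neither comparison. Some of these markers differed between the lines in the edgeR fit, with KRT8 (2.51 ± 0.08), KRT18 (1.07 ± 0.08) and EPCAM (4.21 ± 0.33, 7 and 4 counts in EJ against 117 and 111) higher in T24T and KRT7 (-0.28 ± 0.08) lower. KRT19, at 3 to 4 counts per library, and TP63, at 0 to 3, were not tested.

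By the deposited gene lengths the heavy chain genes held the highest levels of the set in every library, an order that changed in EJ with principal transcript length. On the RPKM scale (counts divided by gene length and library total, the scale here on which different genes can be compared), HLA-C was at 71.0 and 61.5 in EJ (vector, then circ) and at 78.7 and 83.8 in T24T. HLA-E, a heavy chain gene with little variation between people whose product is read by natural killer cells, was at 28.5, 29.1, 70.7 and 73.3 RPKM in the same order. HLA-B was at 28.3, 24.8, 37.5 and 36.8 RPKM. The order HLA-C, HLA-E, HLA-B held in all 4 libraries, but the range of HLA-E over libraries overlapped those of both neighbours.

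TAPBP and B2M came next and were not separated, with ranges of 12.0 to 18.5 and 11.9 to 18.2 RPKM. TAP2 was at 6.93 to 8.14 RPKM and TAP1 at 1.81 to 2.76 RPKM, so these partner subunits did not overlap in level. TAP2 shares 32.3% of its counted bases with exons of another gene, so its level is uncertain. CD274 spanned 0.248 to 2.40 RPKM, which overlaps TAP1, and NLRC5 was lowest, at 0.0568 to 0.0939 RPKM. NLRC5 rested on 11 to 21 counts per library. The deposited lengths cover all counted exons, 6089 bases for B2M against 1705 for its principal coding transcript in GENCODE 29. Divided by principal transcript length, HLA-B ranked 2 and HLA-E 3 by the mean over libraries, and B2M ranked 4 and TAPBP 5. On that scale HLA-E ranked 5 in EJ vector, at 32.6 against 50.6 for B2M and 42.0 for TAPBP. In EJ circ it ranked 4, at 33.3 against 42.6 for B2M, and in both T24T libraries it ranked 2.

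**Figure D1:**
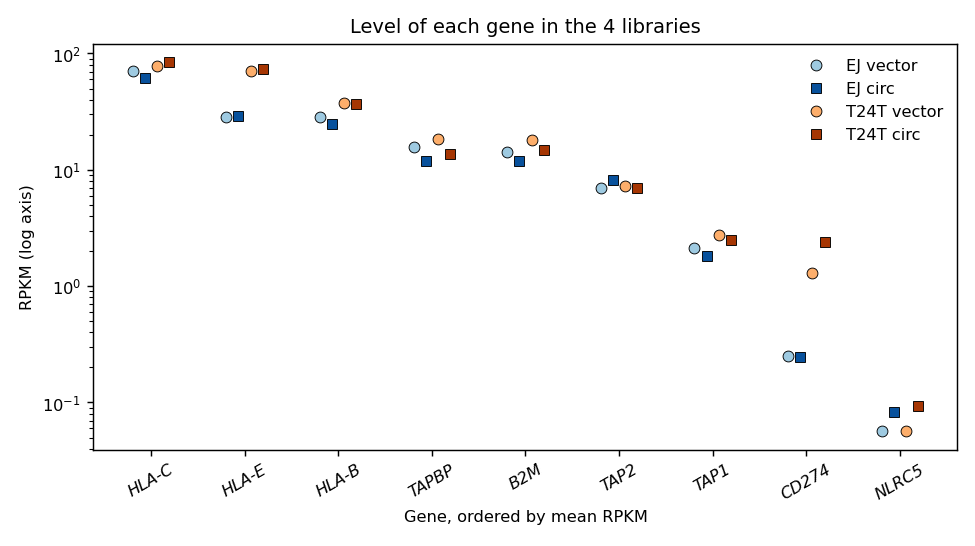
Level in RPKM (log axis) of each of the 9 genes, ordered by mean, with 1 point per library (circles vector, squares circ, blue EJ, orange T24T). HLA-C is highest in every library at 61.5 to 83.8 RPKM, NLRC5 is lowest, and CD274 shows the widest gap between the lines.

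T24T cells carried more mRNA of most of the set than EJ cells, in vector and in circ libraries alike. With transfection kept as a term, 7 of the 9 genes were higher in T24T and 0 lower (edgeR adjusted p under 0.05), against 41.4% of all tested genes called in either direction, 21.9% higher and 19.5% lower. Between the vector libraries alone, counting intervals lay above 1 for 7 of the 9 and below 1 for 0 (27.2% and 25.5% of tested genes, 52.7% in all), and between the circ libraries for 7 and 1 (26.7% and 25.5%, 52.2% in all), the 1 being TAP2. At an unadjusted p under 0.05 the same fit also gave 7 genes, and DESeq2 called 5 higher and 0 lower. The median log2 fold change of the 9 was 0.39, against 0.01 over all tested genes. CD68 and the epithelial markers KRT8, KRT18 and EPCAM were higher in T24T as well, while KRT7 was lower. The part of these markers in the result was not tested. More cells making a transcript and more transcript per cell cannot be told apart in such bulk libraries. Each ± below is a standard error of the edgeR fit over n = 2 libraries per side, and it rests mostly on spread pooled over genes.

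CD274 differed most. Its counts were 16 and 15 in EJ vector and circ against 91 and 178 in T24T, with no overlap between the lines. The log2 fold change was 2.93 ± 0.26 (edgeR adjusted p = 6.55e-11). Between the vector libraries CD274 was 5.48-fold higher in T24T (95% counting interval 3.20 to 10), and between the circ libraries 10.2-fold (5.99 to 18.5). These intervals are exact binomial ones and cover counting error only.

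The gap was not shared by the genes around CD274. It lies on chromosome 9 at 5450503 to 5470566 (hg38), and 8 nearby genes on the same arm were listed, 7 of them tested. None was higher in T24T (1 at an unadjusted p under 0.05 in either direction, 0 in DESeq2), against 21.9% of all tested genes. UHRF2, a chromatin reader gene, was lower at -0.33 ± 0.13 (edgeR adjusted p = 0.0463), against 19.5% of all tested genes. JAK2, which encodes a kinase of interferon gamma signalling, had 95 and 96 counts in EJ and 69 and 110 in T24T (-0.25 ± 0.19, edgeR adjusted p = 0.308). PDCD1LG2, the gene of the other PD-1 ligand, had 1 to 3 counts per library and was not tested.

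HLA-E had the next largest difference. Its counts were 1326 and 1274 in EJ vector and circ, and 3547 and 3938 in T24T. The log2 fold change was 1.38 ± 0.09 (edgeR adjusted p = 5.38e-15), and the fold was 2.58 (2.42 to 2.75) between vector libraries and 2.64 (2.48 to 2.82) between circ libraries. HLA-B, with 1332 and 1098 counts in EJ and 1907 and 2002 in T24T, was higher by 0.55 ± 0.09 (edgeR adjusted p = 3.23e-06). HLA-C, with 2784 and 2266 counts against 3329 and 3795, was higher by 0.36 ± 0.09 (edgeR adjusted p = 0.00119). The RPKM ratio of HLA-E to HLA-B was thus 1.01 and 1.17 in EJ and 1.88 and 1.99 in T24T, while that of HLA-C to HLA-B stayed between 2.10 and 2.51.

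HLA-B (chromosome 6, 31353872 to 31357188, hg38) and HLA-C (31268749 to 31272130) are shown with their upstream DNA because both were higher in T24T and their promoters are close copies. Their RefSeq windows of 250 bases before the start (GRCh38.p14, minus strand, HLA-B at chr6:31357180-31357429 and HLA-C at chr6:31272093-31272342) were identical at 91.9% of aligned bases. Capitals mark matches, on either strand, to 6 motifs. These were the relaxed interferon-stimulated response element GAANNGAAA, its longer form with 1 more A in the leading GAA, an NF-kB motif (by name, its matches being printed), the STAT form TTCNNNGAA, the cyclic AMP response core TGACG and the box bound by NF-Y, CCAAT. Matches to different motifs may overlap.
HLA-B: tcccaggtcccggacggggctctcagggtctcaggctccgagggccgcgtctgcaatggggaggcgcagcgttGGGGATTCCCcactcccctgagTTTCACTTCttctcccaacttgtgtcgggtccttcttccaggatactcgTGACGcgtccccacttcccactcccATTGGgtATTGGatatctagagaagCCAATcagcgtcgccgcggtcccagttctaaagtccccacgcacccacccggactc
HLA-C: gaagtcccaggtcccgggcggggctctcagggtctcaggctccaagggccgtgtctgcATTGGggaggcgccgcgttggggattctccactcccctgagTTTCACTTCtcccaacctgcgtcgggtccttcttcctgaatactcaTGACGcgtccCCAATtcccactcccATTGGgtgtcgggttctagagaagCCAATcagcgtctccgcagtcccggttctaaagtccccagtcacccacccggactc
Both windows held the relaxed interferon form (as TTTCACTTC), the cyclic AMP response core and the NF-Y box, and of the pair HLA-B held the NF-kB motif, as GGGGATTCCC. Among all 35116 windows of that length, 6.6% held the relaxed interferon form, 5.1% the NF-kB motif, 21.2% the cyclic AMP response core, 32.0% the NF-Y box, 6.6% the STAT form and 3.0% the longer interferon form. A match is a description of letters and not a measured site. The table of promoters gave a window for 7 of the 9 genes and had none for HLA-E and NLRC5.

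Such likeness also bears on counting. Of all stretches of 50 bases in the principal transcript, 2.54% in HLA-B, 6.79% in HLA-C and 5.13% in HLA-E also occurred in another gene's transcripts. For stretches of 100 bases the shares were 0%, 0.28% and 0.60%. The transcripts of HLA-B and HLA-C were 92.6% identical over aligned bases, and each was about 85% identical to HLA-E (85.1% and 85.5%). How reads that fit several genes were counted is not given in the sources used here, and the lines' own HLA alleles were not compared with the reference. In addition 542 of the 3012 counted HLA-B bases lie opposite exons of XXbac-BPG248L24.12, which had 293 to 591 counts, and without strand such reads cannot be told apart.

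The remaining members parted into genes higher in T24T and genes with no call. B2M (chromosome 15, 44711477 to 44718877) had 1349 and 1068 counts in EJ and 1867 and 1613 in T24T, a log2 fold change of 0.39 ± 0.08 (edgeR adjusted p = 0.000330). TAP1 (chromosome 6, 32845209 to 32853978), with 151 and 122 counts against 213 and 206, was higher by 0.49 ± 0.15 (edgeR adjusted p = 0.00854). Of the 4578 counted TAP1 bases, 456 lie opposite exons of PSMB8-AS1, which had 17 and 23 counts in EJ and 44 and 46 in T24T. TAPBP (33299694 to 33314387) was higher by 0.27 ± 0.09 (edgeR adjusted p = 0.0113). The T24T circ library, at 1239 counts of TAPBP, nonetheless lay below EJ vector at 1241 before scaling. DESeq2 did not call TAP1 (adjusted p = 0.291) or TAPBP (0.228), and with scaling by library size alone the TAPBP call was lost as well (edgeR adjusted p = 0.0512).

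TAP2 and NLRC5 did not pass. TAP2 (32821833 to 32838780) had 693 and 765 counts in EJ and 780 and 803 in T24T (-0.02 ± 0.10, edgeR adjusted p = 0.896), so its partner TAP1 was called and TAP2 was not. The difference between these subunits was not itself tested. Of TAP2's counted bases 32.3% are also exons of XXbac-BPG246D15.9 on the same strand, a transcript with 532 to 615 counts, and how reads there were assigned is not given. In the principal transcript of TAP2, 80.2% of stretches of 50 bases also occurred in AL669918.1, so TAP2 counts are uncertain. NLRC5 (chromosome 16, 56989485 to 57083531) had 11 and 15 counts in EJ and 12 and 21 in T24T (0.18 ± 0.44, edgeR adjusted p = 0.775), a depth at which the counting interval of the vector fold ran from 0.425 to 2.63.

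Other genes of antigen processing were set beside the members from fixed lists. Over all tested genes, 21.9% were higher in T24T and 19.5% lower. Of 7 immunoproteasome and trimming genes, 4 were higher in T24T and 0 lower, with a median of 0.42. PSMB8, an interferon-inducible proteasome subunit gene, had 103 and 88 counts in EJ and 415 and 496 in T24T (2.11 ± 0.14). PSMB9, another such subunit gene that neighbours TAP1, had 15 and 15 against 80 and 52 (1.99 ± 0.32), and the peptide-trimming ERAP1 was higher by 0.43 ± 0.10. PSMB8-AS1 shares 425 counted bases with PSMB8, on the opposite strand, and 174 with PSMB9, on the same strand. Of the 3 constitutive catalytic subunit genes, PSMB7 alone was higher (0.35 ± 0.08). Of 4 loading chaperone genes, PDIA3 (0.69 ± 0.08) and CALR, encoding calreticulin (0.58 ± 0.08), were higher. Among 10 tested genes of other class I and class I-like molecules, 5 were higher and 0 lower, among them the neonatal Fc receptor gene FCGRT (2.04 ± 0.22) and HLA-F (0.78 ± 0.14).

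Genes that regulate class I transcription were called in both directions. Of 16 interferon signalling genes, 6 were higher in T24T and 2 lower (median 0.17), near the 41.4% called among all tested genes. The receptor subunit genes IFNAR2 (1.57 ± 0.10) and IFNGR2 (1.43 ± 0.09) and the feedback inhibitor gene SOCS3 (1.30 ± 0.10) were higher, and IRF9, encoding an interferon response factor, was among the lower (-0.54 ± 0.14). The IRF9 difference rests on the circ libraries, with a log2 ratio of -0.87 against -0.15 between vector libraries (fold 0.898, 0.743 to 1.08), and DESeq2 called 5 genes of this list higher and 0 lower. Of 9 genes whose products bind the class I promoter module or belong to its assembly, 0 were higher and 2 lower, ATF1 (-0.39 ± 0.13) and NFYC (-0.25 ± 0.10). DESeq2 called neither ATF1 nor NFYC. Over all tested genes, 21.9% were higher and 19.5% lower.

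Circ against vector moved fewer members. With cell line kept as a term, TAPBP and B2M fell and CD274 rose, so 1 of 9 was called higher and 2 lower, against 7.13% and 5.56% of all tested genes. In all, 12.7% of tested genes were called in this comparison, and the median of the 9 was -0.04, against 0.00 over all tested genes. DESeq2 called 0 of the 9, with 2 at an unadjusted p under 0.05 and no adjusted p for CD274, NLRC5 and TAP1. Without the cell line term edgeR called 0 of the 9 (0 at an unadjusted p under 0.05) and 0 of all genes.

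TAPBP was lower with circ in both lines. EJ had 1241 counts with vector and 890 with circ, T24T had 1578 and 1239, and neither line's counting interval reached 1. The log2 fold change was -0.40 ± 0.09 (n = 2 lines, edgeR adjusted p = 0.00183), and the adjusted p in DESeq2 was 0.079. The fold was 0.767 in EJ (0.703 to 0.837) and 0.745 in T24T (0.691 to 0.803). Because TAPBP is the member with the largest fall, its upstream window is shown (RefSeq, GRCh38.p14, minus strand, chr6:33314079-33314328), with capitals as above.
TAPBP: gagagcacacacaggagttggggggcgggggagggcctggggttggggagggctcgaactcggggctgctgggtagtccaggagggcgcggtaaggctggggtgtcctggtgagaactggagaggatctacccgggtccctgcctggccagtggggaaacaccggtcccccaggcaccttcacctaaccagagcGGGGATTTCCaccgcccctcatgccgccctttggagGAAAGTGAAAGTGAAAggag
The window held the NF-kB motif as GGGGATTTCC and overlapping matches to the longer interferon form, GAAAGTGAAA, just before the RefSeq start. The counted TAPBP gene runs to 33314387, so the window lies within its counted span.

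B2M fell as well, by 0.26 ± 0.08 on the log2 scale (edgeR adjusted p = 0.0368). EJ had 1349 counts with vector and 1068 with circ, and T24T had 1867 and 1613. The folds were 0.847 (0.781 to 0.918) and 0.820 (0.767 to 0.877), so both lines were lower, by amounts within each other's counting interval. The adjusted p in DESeq2 was 0.325.

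CD274 rose by 0.74 ± 0.23 (edgeR adjusted p = 0.0333), and this call rests on T24T. In T24T its counts went from 91 to 178, a fold of 1.86 (1.43 to 2.42). In EJ they were 16 and 15, a fold of 1.0 (0.462 to 2.17), and the log2 ratio of EJ alone was 0.00. The fold in T24T was 1.85 times that in EJ, with a counting interval of 0.815 to 4.21, so a difference between the lines was not detectable at the depth of EJ. CD274 has too few EJ counts for the filter of 50 counts in each line, and limma on log2(RPKM + 1), which understates changes of low genes, gave 0.28 (adjusted p = 0.382).

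The CD274 window is shown because CD274 had the widest range of the set (RefSeq, GRCh38.p14, plus strand, chr9:5450292-5450541).
CD274: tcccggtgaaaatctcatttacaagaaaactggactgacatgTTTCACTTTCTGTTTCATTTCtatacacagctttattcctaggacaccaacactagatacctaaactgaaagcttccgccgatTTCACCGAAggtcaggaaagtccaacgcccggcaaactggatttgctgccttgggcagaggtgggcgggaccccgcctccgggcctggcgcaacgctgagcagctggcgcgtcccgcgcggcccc
It held consecutive overlapping matches to the longer and relaxed interferon forms, which run together in the first long stretch of capitals, and the STAT form TTCACCGAA. The NF-Y box, the cyclic AMP response core and the NF-kB motif had no match, which says only that these letters are not in this window.

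**Figure D2:**
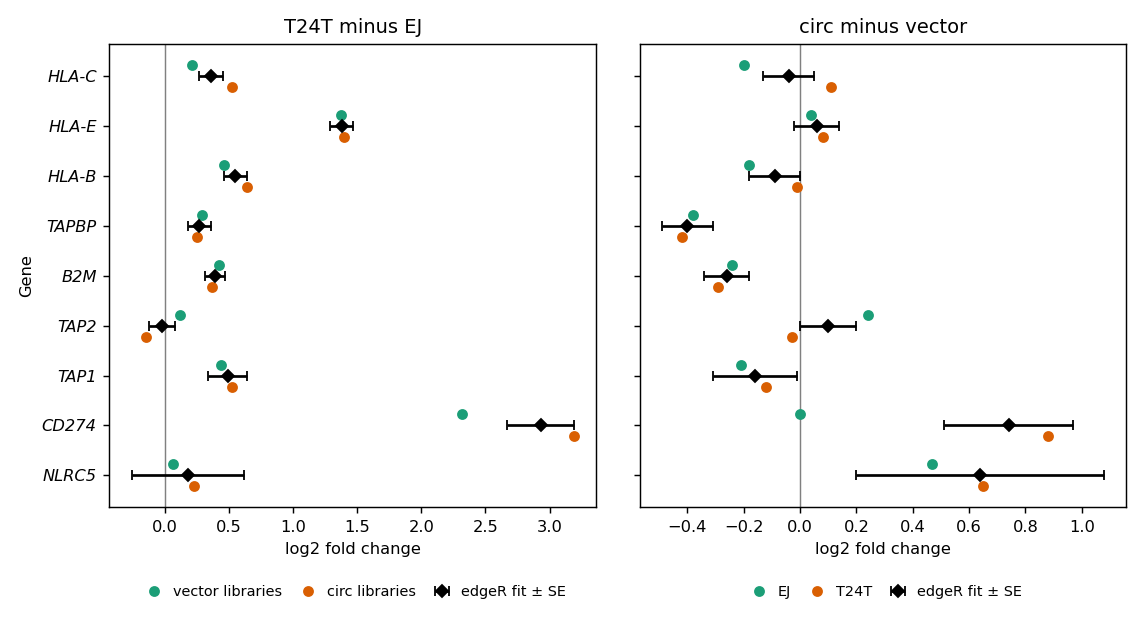
Log2 fold change of each gene between lines (left) and between transfections (right). Black diamonds are the edgeR estimate ± SE, and coloured points the log2 ratios of each pair of libraries. TAPBP and B2M lie below 0 in both lines on the right, whereas the CD274 points are at 0.00 for EJ and 0.88 for T24T.

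The heavy chain genes and transporter subunits did not pass in circ against vector. HLA-E had 0.06 ± 0.08 (edgeR adjusted p = 0.723), HLA-B -0.09 ± 0.09 (0.556), HLA-C -0.04 ± 0.09 (0.822), TAP1 -0.16 ± 0.15 (0.538), TAP2 0.10 ± 0.10 (0.562) and NLRC5 0.64 ± 0.44 (0.385). Within EJ, 1 of 9 counting intervals lay above 1 (16.7% of tested genes), that of TAP2 at 1.18 (1.06 to 1.31), and 4 lay below (16.3%), those of HLA-B, HLA-C, B2M and TAPBP. Within T24T, 3 lay above 1 (19.7%), those of HLA-C, HLA-E and CD274, and 2 below (17.6%), those of B2M and TAPBP. With scaling by library size alone 2 lay above 1, and HLA-E, whose interval was 1.01 to 1.10, was the member lost. Either way, intervals off 1 were found for 33.0% of tested genes in EJ and 37.3% in T24T. With 1 library per group there is no replicate check within a line.

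HLA-C pointed opposite ways in the lines. Its fold was 0.871 in EJ (0.823 to 0.921) and 1.08 in T24T (1.03 to 1.13). How many of all tested genes pointed opposite ways was not counted. HLA-B had 0.882 in EJ (0.813 to 0.956) and 0.997 in T24T (0.935 to 1.06). The fold in T24T over that in EJ was 1.24 for HLA-C (1.16 to 1.34), 1.13 for HLA-B (1.02 to 1.25) and 0.828 for TAP2 (0.716 to 0.957), with no test possible at 1 library per group.

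**Figure D3:**
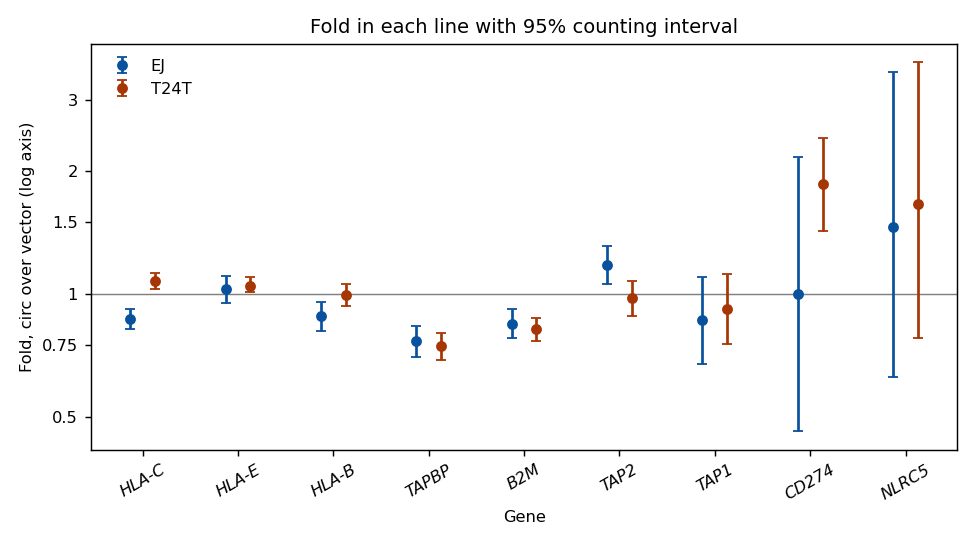
Fold of circ over vector (log axis) in EJ (blue) and T24T (red) with exact 95% counting intervals. TAPBP and B2M lie below 1 in both lines, HLA-C lies on opposite sides of 1, and the intervals of NLRC5 in both lines and of CD274 in EJ are wide.

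Neighbouring steps of presentation were covered by short lists, in a comparison in which 12.7% of all tested genes were called. At that share, few calls in a short list do not set it apart. In the immunoproteasome and trimming list 0 of 7 passed (1 at an unadjusted p under 0.05, 0 in DESeq2). Of the loading chaperones, CANX, encoding calnexin, rose by 0.42 ± 0.08 (edgeR adjusted p = 0.000440), with 14656 and 17560 counts in EJ and 14309 and 20962 in T24T, while CALR had 0.06 ± 0.08. Of 10 other class I and class I-like genes 0 passed (1 unadjusted, 0 in DESeq2), and of 9 class I promoter factors 0 passed (0 unadjusted, 0 in DESeq2). Of 16 interferon signalling genes IRF9 rose (0.50 ± 0.14) and IFNGR2 fell (-0.35 ± 0.09), neither called by DESeq2. The IRF9 rise rests on EJ, where the log2 ratio was 0.84, against 0.12 for T24T.

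Ligands that act beside class I and PD-L1 on T cells and natural killer cells moved in both directions. Of 8 tested checkpoint ligand genes other than CD274, 2 rose with circ and 1 fell, against 7.13% and 5.56% of all tested genes. CD276, encoding B7-H3, fell by 0.54 ± 0.10 (edgeR adjusted p = 0.000302), with 652 and 421 counts in EJ and 888 and 641 in T24T. PVR, encoding the poliovirus receptor that binds TIGIT and DNAM-1, rose by 0.46 ± 0.09, and NCR3LG1, encoding the NKp30 ligand B7-H6, by 0.65 ± 0.14. DESeq2 called the fall of CD276 but not the rise of PVR, and gave no adjusted p for NCR3LG1. Between the lines, ICOSLG (5 and 5 counts in EJ, 203 and 177 in T24T, 5.08 ± 0.30) and TNFRSF14 (3.55 ± 0.42) were higher in T24T, as was CD276, and PVR and C10orf54, the older symbol of VSIR, were lower. DESeq2 called ICOSLG and TNFRSF14 but not CD276, PVR or C10orf54 between the lines.

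Both MIC genes fell with circ. They encode stress ligands of NKG2D that resemble class I chains and need neither peptide nor beta-2 microglobulin. MICB fell by 0.44 ± 0.09 (edgeR adjusted p = 0.000799), with 1203 and 862 counts in EJ and 1700 and 1273 in T24T, and MICA fell by 0.36 ± 0.08 (edgeR adjusted p = 0.00330), with 2327 and 1726 and then 2014 and 1615. These were 2 of 5 tested NKG2D ligand genes, against 5.56% of all tested genes called lower. DESeq2 called the fall of MICB and not that of MICA, and ULBP1 (0.56 ± 0.23) did not pass. Among 10 genes that act on PD-L1 protein, CMTM6, whose product keeps PD-L1 at the cell surface, fell by 0.38 ± 0.10 (edgeR adjusted p = 0.00721, not called by DESeq2), with 712 and 493 counts in EJ and 990 and 831 in T24T. CMTM6 was the 1 gene of these 10 called lower with circ and 0 were called higher, against 5.56% and 7.13% of all tested genes. Between the lines CMTM6, GSK3B and STT3A were higher in T24T, and COPS5, STUB1 and CUL3 lower. Over all tested genes 21.9% were higher in T24T and 19.5% lower. DESeq2 called 1 of the 10 higher in T24T and 3 lower.

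**Figure D4:**
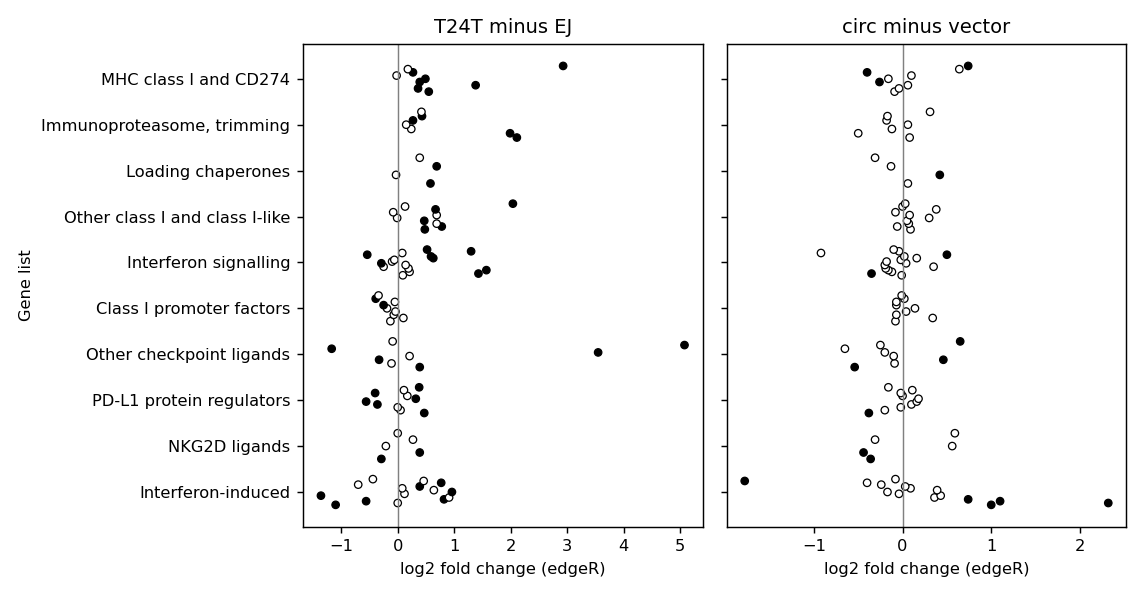
Log2 fold change from edgeR for each tested gene of 10 lists (1 point per gene, filled where the adjusted p is under 0.05), between lines (left) and between transfections (right). On the left 7 of the 9 MHC class I and CD274 points are filled, all to the right of 0, and on the right 3 of 9 are filled.

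Among 11881 genes with 50 counts in every library, NDRG1 lay nearest to CD274 in pattern, at Euclidean distance 0.22 between centred log2 CPM. NDRG1 had 162, 130, 690 and 1431 counts in EJ vector, EJ circ, T24T vector and T24T circ. RP1-261G23.7 (0.29), CD163L1 (0.31), NOG (0.55) and PLCG2 (0.56) followed, and NDRG1 alone lay within 0.25. CD274 itself, with 16 and 15 counts in EJ, falls short of the limit of 50 counts. Genes as low in EJ were not candidates, among them PSMB9 with 15 and 15 counts in EJ and 80 and 52 in T24T. The number within 0.25 therefore does not show how rare the pattern was. The distances of CD274 also carry counting error, so the order of its nearest genes is uncertain. For HLA-B the nearest were KRTAP2-3 (0.01), RPL3 (0.02), ITM2B (0.02), TPI1 (0.03) and EAF1-AS1 (0.03), and 722 genes lay within 0.25. The distance is not scaled to fold size, so the number of genes within 0.25 does not show how common a pattern is.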

How the data were processed

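Reads were trimmed with Trimmomatic and aligned with HISAT2 to hg38, per the submitters' processing notes. Their versions, the counting tool, annotation and use of strand are not given in the sources used here. The authors deposited whole-number read counts for 56303 genes and RPKM values for 29817 genes, which equalled count over length and library total in 100% of values (relative tolerance 1e-06). Columns were matched through the sample descriptions, and 0 sample columns were left out. Descriptions of the T24T libraries read T24.

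Genes with 10 counts in 1 library and 20 over all were kept. Counts were TMM-scaled and tested with edgeR 4.0.16 (quasi-likelihood F test, two-sided, Benjamini-Hochberg over 17689 genes at 0.05), with line and transfection as terms. This leaves 1 residual degree of freedom, with 30.5 prior degrees of freedom. Log2 ratios of library pairs used a prior count of 2. Folds carry exact binomial (Clopper-Pearson) 95% intervals. The edgeR p-values rest on the 1 residual degree of freedom and mostly on spread pooled over genes. They do not measure spread between cultures of a condition. What spread there is may be technical, since the labels name no separate cultures. Members and lists were chosen with earlier results of these data known. Named genes were the members and up to 3 per list, direction and comparison with the smallest adjusted p, or the 2 highest by RPKM where none passed. Other genes are cited as examples chosen after their values were seen. The fit was tested on simulated data. Alternatives were RLE or library-size scaling, no filter or 50 counts in each line, DESeq2 1.42.0, limma-voom (limma 3.58.1), limma on log2(RPKM + 1) and log2(RPKM + 0.1), prior counts of 0.5 and 10, and fits without the line or transfection term. Principal transcript length and library pairs between lines were added after seeing the data. The libraries of a line are paired by the cell line. Some listed genes are not reported here.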

Additional observations from a re-analysis of the deposited data

Results flagged for a closer look

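HLA-C was marked because its lines moved opposite ways, with both counting intervals off 1. The fold of circ over vector was 0.871 in EJ and 1.08 in T24T. The difference was not tested, since each group is 1 library. No other of the 9 genes met this condition. Intervals off 1 were found for 33.0% of tested genes in EJ and 37.3% in T24T. How many of them met the condition was not counted, so it may be common.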

How the results depend on the processing

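In circ against vector, the 1 member higher became 0 with the filter of 50 counts in each line, which drops CD274. Members higher and lower were 0 and 0 with DESeq2 (2 at an unadjusted p under 0.05), 0 and 0 with limma on log2(RPKM + 1) or log2(RPKM + 0.1) (2 each), and 0 and 0 with no replicate block, that is without the cell line pairing. The 8 higher and 6 lower pathway genes became 1 and 2 with DESeq2 and 0 and 0 without the block (5 unadjusted) or with limma on RPKM (18 and 17 unadjusted). All genes, 1262 higher and 984 lower, became 181 and 153 with DESeq2 and 0 and 0 without the block (397 unadjusted) or with limma on RPKM (3588 and 3713 unadjusted). TAPBP, B2M and CD274 kept their direction wherever a value was given, except that CD274 was at 0.00 in EJ alone, and the cause of the lost calls was not tested.

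In T24T against EJ, the 7 members higher became 3 without the transfection block and 4 with either limma on RPKM. The 29 higher and 14 lower pathway genes became 16 and 2 without the block and 18 and 4 with DESeq2. With limma on log2(RPKM + 1) 19 were higher, and with 50 counts in each line, which tests fewer genes, 9 were lower. All genes, 3870 higher and 3445 lower, became 1944 and 1248 without the block, 1776 and 1441 with DESeq2, and 2492 higher with limma on log2(RPKM + 1). TAP2 moved to 0.00 with 50 counts in each line, and IFIT3, lower over all libraries, was at 0.02 between vector libraries alone. By principal transcript length HLA-B ranked 2, HLA-E 3, B2M 4 and TAPBP 5. Leaving out a library leaves no residual degree of freedom, so each line alone gives values only, and depth limits NLRC5 and CD274 in EJ.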

Other observations

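MHC class II genes, which present peptides from outside the cell to CD4 T cells, were close to silent. Of 9 listed, HLA-DRA and HLA-DQA1 had 0 counts in every library, and all 9 together had 37 to 58 counts. HLA-DMB had 32 and 13 counts in EJ and 20 and 28 in T24T, and HLA-DMA had 9, 16, 16 and 24 in the order EJ vector, EJ circ, T24T vector and T24T circ. Neither of these peptide-editor genes passed in circ against vector (edgeR adjusted p = 0.630 and 0.334).

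Interferon-induced genes outside the presentation pathway gave 4 rises and 1 fall among 15 tested in circ against vector, against 12.7% of all tested genes called. IFIT2, which encodes an RNA-binding antiviral protein, rose by 2.32 ± 0.24 (21 to 114 counts in EJ, 27 to 125 in T24T), IFIT3 by 1.10 ± 0.20 and ISG15, a ubiquitin-like modifier gene, by 0.74 ± 0.14. UBA7, which encodes the activating enzyme for ISG15, fell (-1.78 ± 0.54) from 13 to 5 and from 22 to 5 counts. DESeq2 called none of the list and gave no adjusted p for these 4 genes at their counts. Between the lines the same list gave 4 genes higher in T24T, among them ISG15 (0.82 ± 0.14) and IFI6 (0.96 ± 0.25), and 3 lower, OAS1 (-1.36 ± 0.24), IFIT1 (-1.10 ± 0.23) and IFIT3 (-0.56 ± 0.20). Over all tested genes, 21.9% were higher and 19.5% lower.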
